A study of Mus musculus with 36 samples.

Results

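The 9 genes described here encode the enzymes that write, copy and remove 5-methylcytosine in mouse DNA, and they were selected by name in all 36 deposited tables: Tet1, Tet2, Tet3, Dnmt1, Dnmt3a, Dnmt3b, Dnmt3l, Uhrf1 and Tdg, 9 of 20325 genes. Dnmt1 encodes the maintenance methyltransferase, which copies methylation onto the new DNA strand after replication, and Uhrf1 encodes the protein that binds hemimethylated DNA and brings DNMT1 to it. Dnmt3a and Dnmt3b encode the de novo methyltransferases, and Dnmt3l a catalytically inactive partner that stimulates them. The Tet genes encode dioxygenases that oxidise 5-methylcytosine, and Tdg encodes the thymine DNA glycosylase that excises the further oxidised bases for base excision repair. When somatic cells are reprogrammed to pluripotency, silenced promoters of pluripotency genes lose methylation, and embryonic stem cells (ESCs) are known for high Tet1, Dnmt3b and Dnmt3l.

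All cells of MEF origin came from mouse embryonic fibroblasts (MEFs) at E13.5. They were homozygous for a cassette of Oct4, Klf4, Sox2 and c-Myc, joined by 2A and IRES elements, at Col1a1 and heterozygous for the reverse tetracycline transactivator at Rosa26, so doxycycline switches on the 4 reprogramming factors, and the uninduced MEFs carry the same alleles. SGC0946 is a small-molecule inhibitor of DOT1L, the methyltransferase of histone H3 lysine 79, and DMSO was its vehicle. The timecourse (14 libraries) held uninduced MEFs, cells on day 2 of doxycycline with SGC0946 or DMSO, and cells on day 4 with SGC0946 for days 0 to 4 (full window), days 2 to 4 (mid window), days 0 to 2 (early window) or with DMSO. The sort (8 libraries) held cells that FACS had split at day 3.5 of doxycycline into CDH1+ and CDH1- fractions (CDH1 is E-cadherin, an epithelial adhesion protein), then kept on doxycycline with SGC0946 or DMSO until day 5.5. The lentivirus experiment (12 libraries) held uninduced MEFs with a Cdh1 virus or an empty virus, and day 2 cells with each virus and with SGC0946 or DMSO. V6.5 ESCs gave 2 libraries after feeder depletion for 24 h. Each of the 18 groups had 2 libraries, which nothing labels as separate cultures or embryos, so p-values measure the spread between libraries, which may be technical.

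The sum of expected counts per library, in units of 1000000 counts, lay between 18.534 and 50.867. ESCs and reprogramming cells grew on irradiated feeder MEFs, whose RNA cannot be told apart from theirs, and in bulk RNA fewer cells of a type and less RNA per cell cannot be told apart. The labels fitted the markers: the pluripotency gene Nanog stood at 180 and 133 CPM (counts per 1000000) in ESCs and 0.41 and 0.49 CPM in MEFs with the empty virus, and the collagen gene Col1a1 at 39.9 and 42.1 CPM in ESCs and 7270 and 7521 CPM in those MEFs. For the MEFs carrying the Cdh1 virus, replicate 2 has 1 label field naming day 2 cells, while its title and treatment name uninduced MEFs, and it was kept with the MEFs. CPM below are on library sizes scaled by TMM (trimmed mean of M values) and compare 1 gene between samples, and TPM (transcripts per 1000000) is per length and compares genes. A gene was called higher or lower at a Benjamini-Hochberg adjusted p under 0.05 in edgeR's quasi-likelihood test over all tested genes. Whether the libraries of 2 groups overlapped is a description, and its share over all genes was not counted. In MEFs, 6 of 9 members did not overlap between the Cdh1 and the empty virus, with 0 called.

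In ESCs the enzymes formed a different set from that of MEFs, with Dnmt3b in place of Dnmt1 as the leading methyltransferase and Tet1 in place of Tet3 as the leading dioxygenase. On the TPM scale ESCs had 402 ± 8.06 for Dnmt3b, 204 ± 11.6 for Dnmt3l, 176 ± 6.94 for Uhrf1, 119 ± 1.51 for Tdg, 91.3 ± 4.48 for Dnmt1, 78.8 ± 3.63 for Dnmt3a, 44.2 ± 3.66 for Tet1, 6.46 ± 0.092 for Tet2 and 2.48 ± 0.035 for Tet3 (SD, n = 2). In timecourse MEFs the order of TPM levels ran from Dnmt1 (83.2 ± 3.79) through Uhrf1 (74.0 ± 0.87), Tdg (55.8 ± 0.75), Dnmt3a (9.28 ± 0.60), Tet3 (7.96 ± 0.74), Tet2 (2.55 ± 0.30), Dnmt3b (1.58 ± 0.0071) and Tet1 (0.82 ± 0.014) down to Dnmt3l (0.31 ± 0.042). Neighbours in both orders lay apart by more than the sum of their SDs, except Dnmt3a and Tet3 in these MEFs. MEFs with the empty virus, from the experiment fitted together with the ESCs, had Tdg highest at 41.1 ± 1.90 TPM, then Dnmt1 at 32.1 ± 2.04, Dnmt3a at 20.9 ± 0.085 and Uhrf1 at 10.6 ± 1.02. TPM levels are not compared across the timecourse, the sort and the lentivirus libraries.

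Within the Tet family, Tet1 gave 82.4% and 83.9% of the summed TPM in the 2 ESC libraries, against 12.1% and 11.9% in MEFs with the empty virus. Tet3 gave 4.95% and 4.39% in ESCs, against 54.7% and 57.4% in those MEFs. Among the methyltransferase genes, Dnmt3b and Dnmt3l gave 51.3% and 52.4%, and 26.7% and 25.9%, of the family's TPM in ESCs. The Dnmt1 share was 11.9% and 11.6% in ESCs, against 59.97% and 57.67% in MEFs with the empty virus.

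**Figure D1:**
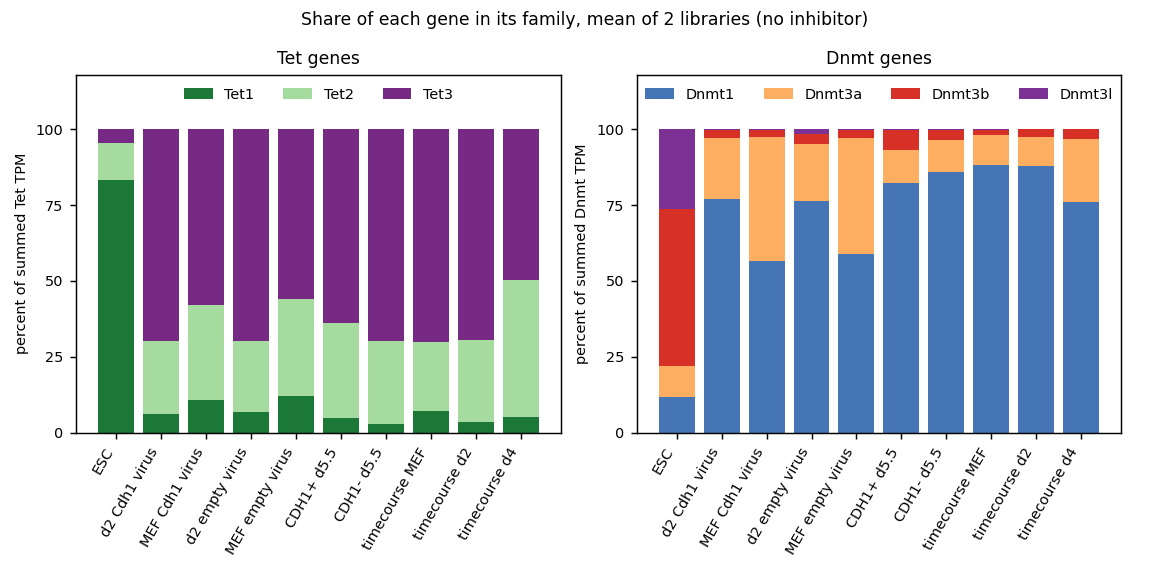
Stacked bars show the mean percent of summed TPM (y axis, 2 libraries each) that each gene contributes to the Tet family (left) and the Dnmt family (right) in groups without SGC0946. Tet1 and Dnmt3b fill the largest part of the ESC bars, while Tet3 and Dnmt1 do so in most MEF-derived groups, and Tet2 reaches 45.0% on day 4 of the timecourse.

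All 9 genes were called between ESCs and MEFs with the empty virus, 8 higher and 1 lower, where 88.7% of 15044 tested genes were called (44.5% higher, 44.1% lower). The median log2 fold change was 2.06 over the 9 and 0.00 over all tested genes. Dnmt3b stood at 991 and 976 CPM in ESCs, against 2.24 and 2.65 CPM in these MEFs (401-fold, log2 8.65 ± 0.13 SE, adjusted p = 1.96e-21). Tet1 stood at 339 and 385 CPM in ESCs, against 12.9 and 12.5 CPM in MEFs (28.6-fold). Uhrf1 was 22.5-fold higher in ESCs, at 363 and 350 CPM, against 14.8 and 16.9 CPM in MEFs. Dnmt3l had 12289 reads in the 2 ESC libraries together, against 4 reads in the 2 MEF libraries, a ratio of 2150 per scaled library with a 95% counting interval of 840 to 7894. Dnmt3a, Tdg and Dnmt1 were higher by 4.17-fold, 3.86-fold and 3.78-fold, and Tet2 by 1.57-fold. By limma the Tet2 log2 difference was 0.20 with pseudocount 1 and 0.23 with pseudocount 0.1, the second not called (adjusted p = 0.0574). Tet3 was the single member lower in ESCs, at 15.9 and 15.7 CPM, against 45.4 and 46.8 CPM in MEFs (log2 fold change -1.55 ± 0.07 SE, adjusted p = 6.69e-16). Against day 2 cells with the empty virus and DMSO, the same 8 were higher and Tet3 lower (9 of 9 called, 85.6% of all genes, 43.4% higher and 42.2% lower), and both comparisons share the ESC libraries. S phase genes were at a summed 5139 and 4931 CPM in ESCs, against 657 and 640 CPM in MEFs with the empty virus, and all 20 of 20 were called higher.

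Of the partner genes, Hells and Cdca7, which remodel chromatin for maintenance methylation, stood at mean levels of 469 and 252 CPM in ESCs, against 17.1 and 7.03 CPM in MEFs with the empty virus, and 11 of 13 maintenance and targeting partners were called higher and 2 lower. Methyl-CpG binding proteins ran the other way, with 6 of 8 called lower and 2 higher. Zbtb4, a zinc finger reader of methylated DNA, was at 3.90 CPM in ESCs and 92.3 CPM in MEFs, and Mbd2 at 12.7 CPM in ESCs and 61.6 CPM in MEFs. Base excision and deamination genes were called higher in 11 of 17 and lower in 3, with the uracil glycosylase gene Ung at 80.3 CPM in ESCs and 2.25 CPM in MEFs.

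The question of the timecourse was how expression moves as the factors act over 4 days. Tet2 rose most among the members: it stood at 12.1 and 13.7 CPM in MEFs, 25.8 and 25.5 CPM on day 2 and 74.5 and 75.4 CPM on day 4 with DMSO. No library of 1 time overlapped with another. Day 2 cells were 1.99-fold and day 4 cells 5.83-fold above MEFs (log2 2.54 ± 0.06 SE, adjusted p = 2.15e-33). Tet3 stood at 45.4 and 49.9 CPM in MEFs, 78.0 and 78.8 CPM on day 2 and 99.8 and 97.7 CPM on day 4, and rose at each step. Tet1 went through a low point, with 6.54 and 6.09 CPM in MEFs, 4.93 and 4.95 CPM on day 2 and 13.2 and 13.2 CPM on day 4. It fell on day 2 relative to MEFs (log2 fold change -0.35 ± 0.10 SE, adjusted p = 0.00216) and was higher on day 4 than in MEFs (log2 1.06 ± 0.09 SE, adjusted p = 3.96e-14). By limma on log2(TPM + 1) the day 2 fall was not called (adjusted p = 0.0948). Its day 4 level in TPM, 1.81 ± 0.0071, was still the lowest of the Tet genes (Tet2 15.7 ± 0.18, Tet3 17.4 ± 0.21).

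Among the 8 tested members, 8 were called on day 2 against MEFs (7 higher, 1 lower), where 74.4% of 14473 tested genes were called (40.4% higher, 34% lower), and 8 on day 4 against MEFs (6 higher, 2 lower), where 82.2% were called (41.2% higher, 41% lower). Between day 4 and day 2, 7 were called (4 higher, 3 lower), with 77.8% of all genes called (38.1% higher, 39.7% lower). The share of members called is therefore close to that of all genes. Cell type markers moved over the same days. Fibroblast markers summed to 41660 and 42140 CPM in MEFs, 17050 and 17270 CPM on day 2 and 18730 and 18860 CPM on day 4, with 12 of 12 called lower at both times. Macrophage and leukocyte markers summed to 262 and 258 CPM in MEFs, 86.1 and 84.5 CPM on day 2 and 212 and 205 CPM on day 4. Skeletal muscle markers summed to 67.6 and 66.4 CPM in MEFs, 2.99 and 3.56 CPM on day 2 and 5.20 and 4.80 CPM on day 4. Epithelial markers summed to 34.1 and 32.5 CPM in MEFs, 47.9 and 48.6 CPM on day 2 and 86.6 and 88.2 CPM on day 4, and the part of these lists in the members' changes was not tested. Median log2 fold changes of the 8 were 0.64 on day 2 and 1.04 on day 4 over MEFs, beside 0.06 and 0.01 for all tested genes. With library totals in place of TMM the all-gene median shifted by 0.12 on day 2 and 0.22 on day 4.

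The maintenance pair had its highest timecourse level on day 2. Dnmt1 stood at 241 and 247 CPM in MEFs, 351 and 352 CPM on day 2 and 216 and 214 CPM on day 4 with DMSO. Uhrf1 stood at 143 and 140 CPM in MEFs, 303 and 298 CPM on day 2 and 162 and 156 CPM on day 4. Both were lower on day 4 than on day 2, Dnmt1 by a log2 fold change of -0.71 ± 0.03 SE (adjusted p = 1.41e-22) and Uhrf1 by -0.91 ± 0.03 SE (adjusted p = 8.61e-26). Relative to MEFs, Dnmt1 on day 4 was called lower at log2 -0.18 ± 0.03 SE, while with library totals in place of TMM the value was 0.04 (adjusted p = 0.225), so the direction rests on the scaling. Uhrf1 on day 4 was still called higher than in MEFs (log2 0.18 ± 0.03 SE, adjusted p = 1.15e-05). S phase genes were also highest on day 2, with summed levels of 2067 and 2095 CPM in MEFs, 3383 and 3345 CPM on day 2 and 1862 and 1850 CPM on day 4. Of these 20 genes, 18 were called higher and 0 lower on day 2, 4 higher and 14 lower on day 4 against MEFs, and 0 higher and 20 lower on day 4 against day 2. On day 4 against MEFs the list's median was log2 -0.31, beside -0.18 for Dnmt1 and 0.18 for Uhrf1 with TMM. G2 and M phase genes were highest on day 2 as well, at a summed 3915 and 3852 CPM. They summed to 2562 and 2663 CPM in MEFs and 1990 and 1986 CPM on day 4. The part of both lists in the Dnmt1 and Uhrf1 results was not tested.

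Dnmt1, Uhrf1, the S phase genes and the G2 and M phase genes all had their highest level on day 2. Promoters were searched for an E2F-type motif, given as TTTCCCGC, TTTGGCGC, TTTCGCGC or TTTGCCGC on either strand. E2F factors regulate many genes of DNA replication. Of the 9 members, 2 had it in a window from 250 bases before to 50 bases after a RefSeq start, Dnmt1 and Uhrf1, against 2.6% of 27025 genes in the RefSeq table and 7 of 15 S phase genes found there. The share among the G2 and M phase genes was not counted. Tdg, whose level with DMSO was also highest on day 2, had no match. The windows of the other Dnmt1 and Uhrf1 starts had none either. The Dnmt1 window with the matches is chr9:20952574-20952873 (GRCm38.p6, minus strand) and the Uhrf1 window is chr17:56304063-56304362 (GRCm38.p6, plus strand), both of 300 bases. Capitals mark the motif, at -219 and 33 from this Dnmt1 start and at -185 from this Uhrf1 start. Each is the furthest downstream of the RefSeq starts of its gene, and which start the cells used was not tested. A match is a description of letters and not a binding site.
Dnmt1 promoter: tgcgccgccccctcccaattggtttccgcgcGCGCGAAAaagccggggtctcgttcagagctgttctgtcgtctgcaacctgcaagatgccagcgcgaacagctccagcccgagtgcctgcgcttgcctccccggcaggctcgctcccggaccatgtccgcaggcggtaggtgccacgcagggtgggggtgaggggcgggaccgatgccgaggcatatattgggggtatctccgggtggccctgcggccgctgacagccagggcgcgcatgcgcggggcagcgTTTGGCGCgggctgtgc
Uhrf1 promoter: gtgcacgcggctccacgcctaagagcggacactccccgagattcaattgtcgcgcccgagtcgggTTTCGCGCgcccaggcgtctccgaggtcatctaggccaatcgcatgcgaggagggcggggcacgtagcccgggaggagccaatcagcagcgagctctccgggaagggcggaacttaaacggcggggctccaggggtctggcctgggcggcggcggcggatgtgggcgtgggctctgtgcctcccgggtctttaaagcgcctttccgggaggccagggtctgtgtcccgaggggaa

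**Figure D2:**
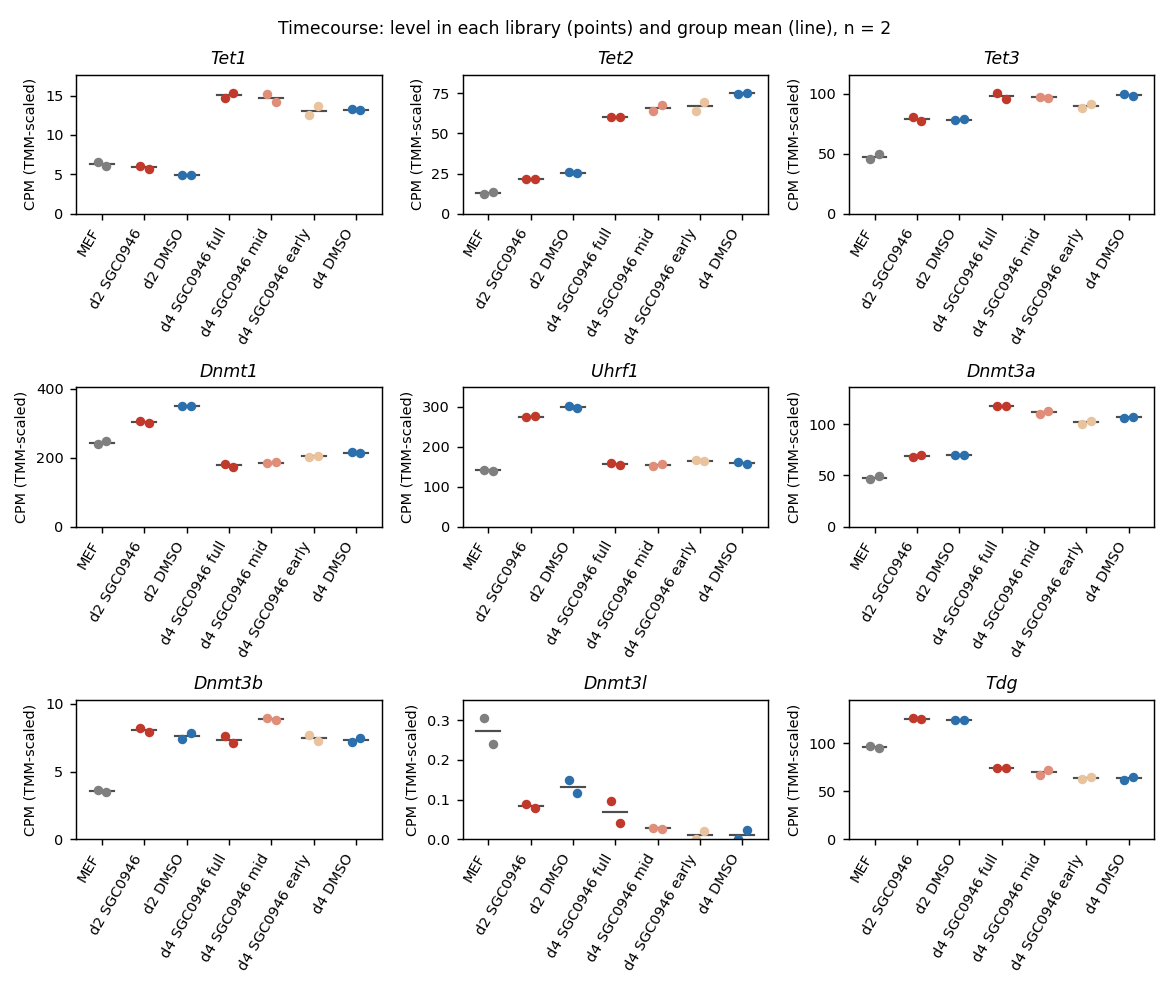
Each panel plots the TMM-scaled CPM (linear y axis from 0) of 1 gene in the 7 timecourse groups, with 2 points for the libraries and a line for their mean. Tet2, Tet3 and Dnmt3a climb to day 4, Dnmt1, Uhrf1 and Tdg peak on day 2, and Dnmt3l stays under 0.31 CPM.

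The de novo genes split. Dnmt3a stood at 46.4 and 48.9 CPM in MEFs, 69.8 and 70.0 CPM on day 2 and 106 and 107 CPM on day 4 with DMSO, and rose at each step (2.24-fold on day 4 over MEFs, adjusted p = 4.37e-27). Dnmt3b stood at 3.62 and 3.50 CPM in MEFs, 7.39 and 7.85 CPM on day 2 and 7.14 and 7.49 CPM on day 4. It was 2.14-fold higher on day 2 than in MEFs, and day 4 and day 2 overlapped (log2 fold change -0.06 ± 0.09 SE, adjusted p = 0.558). Even so its day 4 mean of 7.31 CPM remained far under the 983 CPM of ESCs, which were fitted apart. Dnmt3l had 12 and 9 reads in MEFs, 6 and 5 reads on day 2 and 0 and 1 reads on day 4, was removed by the filter on low counts and has no test here. A count of 0 in the day 4 library allows up to 0.0672 CPM, counting error only.

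Tdg, at 97.4 and 95.3 CPM in MEFs, rose to 124 and 124 CPM on day 2 and was at 62.0 and 65.1 CPM on day 4. Day 4 was lower than MEFs (log2 fold change -0.60 ± 0.04 SE, adjusted p = 3.89e-17) and lower than day 2 (log2 -0.96 ± 0.04 SE). The mouse annotation holds near-identical processed copies of Tdg, so reads shared with them could be placed on Tdg, and its values are uncertain to that extent. Relatives and overlapping antisense transcripts of Dnmt3a, Dnmt3b and Dnmt3l raise the same uncertainty, since the kit does not mark strand.

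Partner genes of the pathway are set against all tested genes, of which 40.4% were higher and 34% lower on day 2, and 41.2% and 41% on day 4, over MEFs. Of 12 tested maintenance and targeting partners, 10 were called higher and 0 lower on day 2, led by Cdca7, at 102 CPM on day 2 and 26.3 CPM in MEFs. Of 10 CXXC and TET partners, 7 were called higher and 2 lower on day 2. On day 4 Ogt, the O-GlcNAc transferase that binds TET proteins, was at 478 CPM, against 97.7 CPM in MEFs (4.90-fold). Methyl-CpG binding proteins gave 3 higher and 2 lower of 8 on day 2 and 4 higher and 4 lower on day 4, near the shares of all genes. Of 9 genes of the S-adenosylmethionine cycle, which supplies the methyl donor, 7 were higher and 2 lower on day 2, with Mtr at 119 CPM on day 2 and 41.5 CPM in MEFs.

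With SGC0946 the called differences of these genes were below 1 log2 unit. On day 2 it lowered Dnmt1, Tet2 and Uhrf1 (3 of 8 called, 17.8% of all genes, 8.73% higher and 9.11% lower). Dnmt1 stood at 306 and 301 CPM with SGC0946, against 351 and 352 CPM with DMSO (log2 fold change -0.21 ± 0.03 SE, adjusted p = 2.77e-06). Tet2 stood at 21.6 and 21.6 CPM with SGC0946, against 25.8 and 25.5 CPM with DMSO (log2 -0.25 ± 0.06 SE, adjusted p = 0.00155). Uhrf1 was at 274 and 276 CPM with SGC0946, against 303 and 298 CPM with DMSO (log2 -0.13 ± 0.03 SE, adjusted p = 0.0035), and this call was lost without replicate 1 of either group (adjusted p 0.0613 and 0.0507). By limma the Tet2 call (0.102 and 0.103) and the Uhrf1 call (0.0919 and 0.0940) were lost. The libraries did not overlap for these 3 genes, but this held for 7 of the 9 members. Tet1 had 6.08 and 5.72 CPM with SGC0946 and 4.93 and 4.95 CPM with DMSO, and was not called (log2 0.25 ± 0.10 SE, adjusted p = 0.0761). In edgeR with upper quartile scaling (adjusted p = 0.0490) or library totals (0.0409) Tet1 was called higher. Of 20 S phase genes, 0 were called higher and 7 lower with SGC0946 on day 2, and their summed level was 3047 and 3074 CPM with SGC0946, against 3383 and 3345 CPM with DMSO.

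On day 4 after the full window, Dnmt1 and Tet2 were lower and Dnmt3a and Tdg higher (4 of 8 called, 34.8% of all genes, 19% higher and 15.8% lower). Tet2 stood at 60.01 and 60.18 CPM with SGC0946, against 74.5 and 75.4 CPM with DMSO (log2 fold change -0.32 ± 0.05 SE, adjusted p = 3.78e-07). Dnmt1 stood at 182 and 173 CPM with SGC0946, against 216 and 214 CPM with DMSO (log2 -0.28 ± 0.03 SE, adjusted p = 3.60e-09). Dnmt3a stood at 118.2 and 117.8 CPM with SGC0946, against 106 and 107 CPM with DMSO (log2 0.14 ± 0.04 SE, adjusted p = 0.00148). Tdg stood at 74.2 and 74.3 CPM with SGC0946, against 62.0 and 65.1 CPM with DMSO (log2 0.23 ± 0.04 SE, adjusted p = 1.90e-05). In all 4 the libraries of the groups lay apart. Uhrf1 had log2 -0.03 ± 0.03 SE (adjusted p = 0.551) and Tet1 log2 0.19 ± 0.08 SE (adjusted p = 0.0522). In edgeR Tet1 was called higher with upper quartile scaling (adjusted p = 0.0231), library totals (0.0436), a replicate block (0.0341) and only the compared groups (0.0280).

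Whether the effect on day 4 differed from that on day 2 was tested directly. Of 8 members, 1 was called, Tdg, where 9.18% of all genes were (5.61% higher, 3.57% lower): its log2 effect was 0.23 on day 4 and 0.02 on day 2, a difference of 0.20 ± 0.05 SE (adjusted p = 0.0121). Without either replicate of day 2 DMSO or day 2 SGC0946, or without replicate 1 of day 4 DMSO, that adjusted p lay between 0.0627 and 0.126, and by limma it was 0.0702 and 0.0829. For Dnmt3a the difference was 0.16 ± 0.05 SE (adjusted p = 0.0505).

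The windows compared inhibitor given before and after day 2. With the mid window, 4 of 8 members were called (27.4% of all genes): Dnmt1 and Tet2 lower, Dnmt3b and Tdg higher. With the early window, 2 of 8 were called (5.63% of all genes, 3.19% higher and 2.45% lower), Tet2 and Tet3, both lower. Dnmt1 stood at 184 and 188 CPM with the mid window and 203 and 205 CPM with the early window, against 216 and 214 CPM with DMSO. It was called for the mid window (log2 fold change -0.21 ± 0.03 SE, adjusted p = 3.21e-06) and not for the early window (log2 -0.08 ± 0.03 SE, adjusted p = 0.185). Tet2 stood at 63.9 and 67.8 CPM with the mid window and 64.1 and 69.8 CPM with the early window, both under all DMSO libraries. Its log2 fold changes were -0.19 ± 0.05 SE for the mid window (adjusted p = 0.00201) and -0.16 ± 0.05 SE for the early one (adjusted p = 0.0243).

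Between the 2 windows directly, 5 of 8 were called (21.2% of all genes, 11% higher and 10.3% lower). Dnmt1 was higher with the early than with the mid window (log2 0.13 ± 0.03 SE, adjusted p = 0.00257), as was Uhrf1, at 167 and 163 CPM with the early window and 152 and 157 CPM with the mid window (adjusted p = 0.0343). Dnmt3a was lower with the early window, at 101 and 103 CPM, against 110 and 113 CPM with the mid window (adjusted p = 0.00912), and Tdg and Tet3 were lower too. S phase genes moved in the same comparison, with 5 of 20 called higher and 0 lower, at a summed 1912 and 1939 CPM with the early window and 1694 and 1671 CPM with the mid window. Against DMSO, 5 of 20 were called lower and 0 higher with the mid window. Epithelial markers summed to 110 and 108 CPM with the early window and 144 and 148 CPM with the mid window, against 86.6 and 88.2 CPM with DMSO. The part of both lists in these results was not tested. Calls of the windows depended on single libraries. The early-window call of Tet3 was lost without any 1 of the 4 libraries (adjusted p 0.0555 to 0.267), and that of Tet2 without either DMSO replicate or early replicate 1 (0.127 to 0.410). For the mid window Dnmt3b (log2 0.28 ± 0.09 SE) was lost without any 1 library (0.0631 to 0.154), Tdg without DMSO replicate 1 or mid replicate 2 (0.186 and 0.314) and Tet2 without mid replicate 1 (0.0505). Between windows, Tet3 was lost without any 1 library (0.0681 to 0.267), Uhrf1 without mid replicate 1 or either early replicate (0.0714 to 0.198), Tdg without mid replicate 2 or either early replicate (0.0685 to 0.495) and Dnmt3a without early replicate 1 or mid replicate 2 (0.0974 and 0.127). DESeq2 and limma called neither Tet2 nor Tet3 for the early window (adjusted p 0.0526 to 0.246), and limma did not call Dnmt3b or Tdg for the mid window (0.0572 to 0.0900), nor did DESeq2 call Dnmt3b there (0.115). Between windows, the Tdg and Tet3 calls were lost with RLE size factors (0.0519 and 0.0727), no filter, DESeq2 and limma, the Uhrf1 call with upper quartile scaling (0.0999) and library totals (0.0987), and the Dnmt3a call with limma (0.0602 and 0.0712).

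Under the full window, where 19% of all genes were higher and 15.8% lower, pathway partners gave 0 higher and 4 lower of 12 maintenance and targeting partners. Cdca7 was at 88.8 CPM with SGC0946 and 116 CPM with DMSO (log2 fold change -0.38 ± 0.04 SE, adjusted p = 1.25e-10). CXXC and TET partners gave 1 higher and 5 lower of 10. The 5 higher and 4 lower of 16 base excision and deamination genes included Apobec1, a cytidine deaminase, at 44.2 CPM with SGC0946 and 30.7 CPM with DMSO. Of 20 S phase genes 0 were higher and 7 lower, at a summed 1674 and 1690 CPM with SGC0946, against 1862 and 1850 CPM with DMSO. Epithelial markers summed to 227 and 222 CPM with SGC0946 and 86.6 and 88.2 CPM with DMSO on day 4, and their part in the members' differences was not tested.

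Sorting by CDH1 asked how cells that had gained this epithelial surface protein differ from those that had not. In the DMSO arm 6 of 9 members were called between CDH1+ and CDH1- cells (26.6% of all genes, 12.8% higher and 13.8% lower), with Dnmt3b, Tet1 and Tet2 higher and Dnmt1, Uhrf1 and Tdg lower in CDH1+ cells. Dnmt3b stood at 12.0 and 12.0 CPM in CDH1+ cells, against 7.72 and 7.33 CPM in CDH1- cells (log2 fold change 0.67 ± 0.09 SE, adjusted p = 3.56e-09). Tet1 stood at 5.89 and 5.29 CPM in CDH1+ cells, against 3.60 and 3.06 CPM in CDH1- cells (log2 0.74 ± 0.13 SE, adjusted p = 2.72e-06). Dnmt1 stood at 201 and 195 CPM in CDH1+ cells, against 233 and 238 CPM in CDH1- cells (log2 -0.25 ± 0.03 SE, adjusted p = 1.61e-12). Uhrf1 stood at 160 and 166 CPM in CDH1+ cells, against 190 and 196 CPM in CDH1- cells (log2 -0.25 ± 0.03 SE, adjusted p = 2.60e-11). Neither population's libraries overlapped with the other's for these 4 genes. The smaller differences of Tet2 (log2 0.23 ± 0.06 SE) and Tdg (log2 -0.10 ± 0.03 SE) were lost without CDH1- replicate 1 (adjusted p 0.0599 and 0.112), and without CDH1+ replicate 2 for Tet2 (0.285) and CDH1+ replicate 1 or CDH1- replicate 2 for Tdg (0.247 and 0.0586). Limma called neither Tet2 (0.0696 and 0.0721) nor Tdg (0.210 and 0.210), and Tdg was also lost with DESeq2 (0.107) and library totals (0.0584). Without CDH1- replicate 1, Tet3 and Dnmt3a were instead called lower in CDH1+ cells (0.009 and 0.046).

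In the SGC0946 arm 6 of 9 were called as well (26.8% of all genes), with Dnmt3b at 15.2 and 14.4 CPM in CDH1+ cells, against 8.49 and 7.93 CPM in CDH1- cells (log2 0.85 ± 0.09 SE, adjusted p = 2.19e-14). Tet1 was again higher and Dnmt1, Uhrf1, Tdg and Tet3 lower in CDH1+ cells. Here the calls of Tet3 (log2 -0.13 ± 0.04 SE) and Tdg (log2 -0.10 ± 0.03 SE) were lost without replicate 2 of either population, and that of Tdg also without CDH1+ replicate 1 (adjusted p 0.0648 to 0.211), and both by DESeq2 and limma (0.106 to 0.3005). In the DMSO arm, 19 of 20 S phase genes were called lower and 0 higher, at a summed 1874 and 1885 CPM in CDH1+ cells, against 2253 and 2258 CPM in CDH1- cells. Markers of macrophages and leukocytes were called higher in 10 of 10, at a summed 186 and 186 CPM in CDH1+ cells, against 91.4 and 89.5 CPM in CDH1- cells. Pluripotent cell markers summed to 37.0 and 33.9 CPM in CDH1+ cells, against 18.8 and 17.1 CPM in CDH1- cells. The part of these lists in the members' differences was not tested.

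By edgeR, Tet1 was higher with SGC0946 after the sort in both populations. Tet1 stood at 7.87 and 7.42 CPM with SGC0946, against 5.89 and 5.29 CPM with DMSO in CDH1+ cells (log2 fold change 0.45 ± 0.11 SE, adjusted p = 0.00145). In CDH1- cells it stood at 5.15 and 4.91 CPM with SGC0946, against 3.60 and 3.06 CPM with DMSO (log2 0.59 ± 0.13 SE, adjusted p = 0.000323). The groups did not overlap in either population. In CDH1+ cells 3 of 9 were called (18.8% of all genes, 8.33% higher and 10.5% lower), the others being Dnmt3b, at 15.2 and 14.4 CPM with SGC0946, against 12.0 and 12.0 CPM with DMSO (log2 0.30 ± 0.08 SE, adjusted p = 0.00392), and Tdg (log2 0.11 ± 0.03 SE, adjusted p = 0.0102). In CDH1- cells 2 of 9 were called (18.7% of all genes, 7.82% higher and 10.8% lower), Tet1 and Tdg, the second at 110 and 113 CPM with SGC0946, against 104 and 103 CPM with DMSO (log2 0.11 ± 0.03 SE, adjusted p = 0.0162). The CDH1+ calls were lost for Tet1 without DMSO replicate 2 (adjusted p = 0.0667), for Dnmt3b without SGC0946 replicate 1 (0.0621) and for Tdg without DMSO replicate 1 or SGC0946 replicate 1 (0.178 and 0.0941). The CDH1- call of Tdg was lost without replicate 2 of either group (0.0957 and 0.141). Limma on log2 TPM called Tet1 in neither population (adjusted p 0.0746 and 0.150 in CDH1+ cells, 0.0784 and 0.0770 in CDH1- cells, pseudocounts 1 and 0.1), and DESeq2 called Tdg in neither (0.0515 in CDH1+ and 0.0616 in CDH1- cells).

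Markers of other cell types moved in the same comparisons. In CDH1+ cells pluripotent cell markers summed to 44.8 and 45.7 CPM with SGC0946, against 37.0 and 33.9 CPM with DMSO, and 5 of 9 tested were called higher and 0 lower. Epithelial markers summed to 421 and 426 CPM with SGC0946, against 360 and 365 CPM with DMSO (8 of 12 higher, 0 lower), and macrophage and leukocyte markers to 149 and 149 CPM, against 186 and 186 CPM (0 of 10 higher, 4 lower). In CDH1- cells pluripotent cell markers summed to 22.9 and 21.5 CPM with SGC0946, against 18.8 and 17.1 CPM with DMSO (6 of 9 higher, 0 lower), and epithelial markers to 246 and 250 CPM, against 194 and 191 CPM (9 of 12 higher, 0 lower). Their part in the Tet1 and Dnmt3b results was not tested.

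No member was called for a difference of the SGC0946 effect between CDH1+ and CDH1- cells by edgeR, where 0.186% of all genes were (0.0501% higher, 0.136% lower), and none at an unadjusted p under 0.05, by DESeq2 or by limma. The differences in log2 effect were -0.14 ± 0.18 SE for Tet1 and 0.18 ± 0.13 SE for Dnmt3b. Dnmt3l had between 2 and 14 reads in the 8 libraries and was called by edgeR in no comparison of the sort. Limma with pseudocount 0.1 called it higher with SGC0946 in CDH1- cells (log2 1.17, adjusted p = 0.0343).

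**Figure D3:**
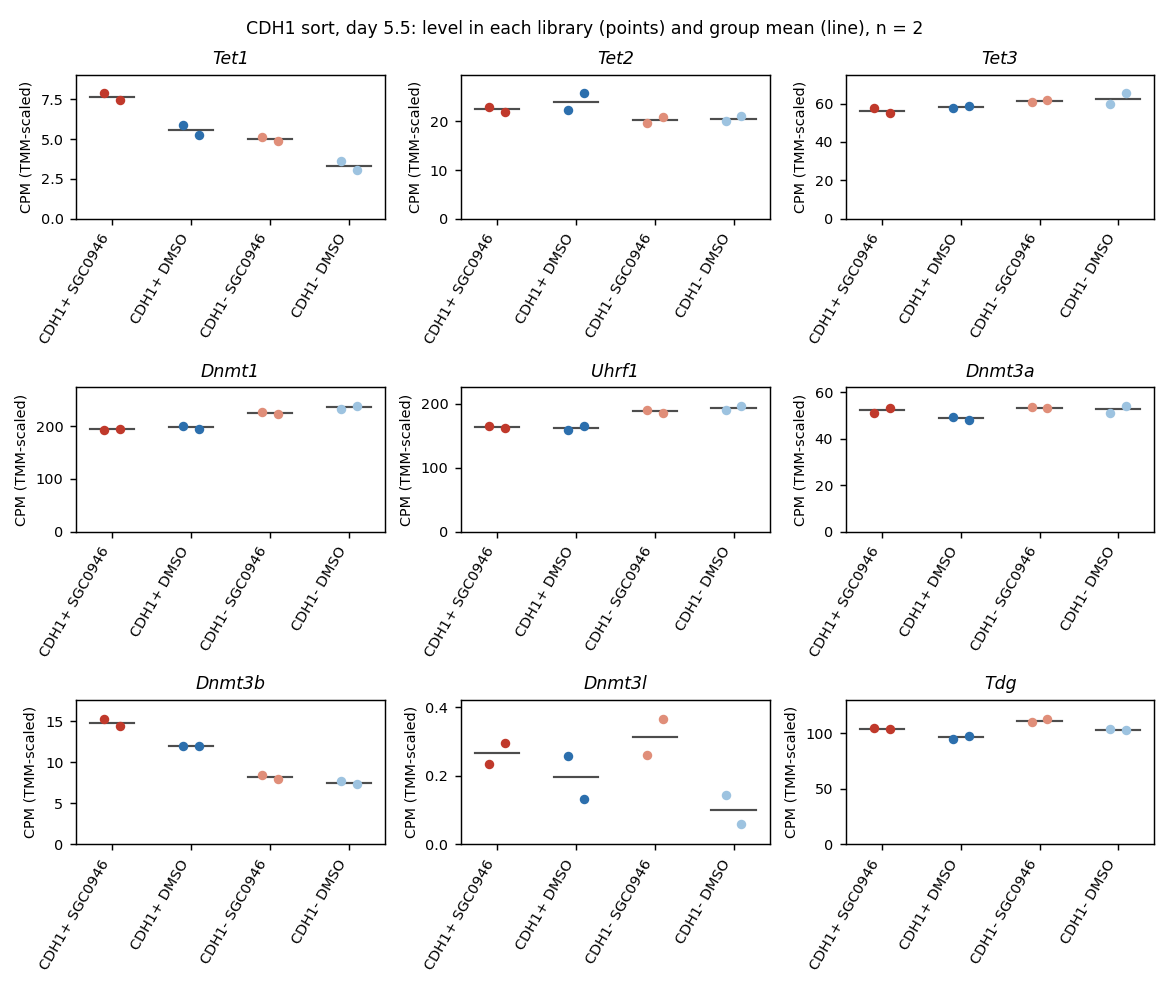
Each panel plots the TMM-scaled CPM (linear y axis from 0) of 1 gene in the 4 groups of the CDH1 sort, with 2 points for the libraries and a line for their mean. Tet1 and Dnmt3b are higher in CDH1+ than in CDH1- cells in both arms, while Dnmt1 and Uhrf1 are lower.

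The lentivirus experiment repeated the first 2 days of doxycycline in cells with a Cdh1 or an empty virus. The Cdh1 virus put Cdh1 at 171 and 179 CPM in MEFs, against 0.41 and 0.49 CPM with the empty virus. In MEFs it moved no member past the threshold of edgeR, DESeq2 or limma, with 1 member, Dnmt3a, at an unadjusted p under 0.05 and 1.14% of all genes called (0.612% higher, 0.525% lower). On day 2 with DMSO, 1 of 9 members was called between the Cdh1 and the empty virus (0.897% of all genes, 0.146% higher and 0.751% lower), Dnmt3l, at 0.163 and 0.186 CPM with the Cdh1 virus, against 0.72 and 0.72 CPM with the empty virus (log2 fold change -2.02 ± 0.35 SE, adjusted p = 0.00247). These values are 11 reads against 38 reads, a ratio of 0.243 with a 95% counting interval of 0.112 to 0.484, and the call was lost without replicate 1 of the Cdh1 virus group (adjusted p = 0.0704). Traces of pluripotent cell markers moved with it. Of 9 such markers under 0.1 CPM in the MEFs of this experiment, 2 and 2 were above 0.1 CPM in the libraries with the Cdh1 virus and DMSO, against 9 and 9 with the empty virus and DMSO. Dppa5a, an ESC gene, stood at 0 and 0.031 CPM with the Cdh1 virus, against 2.20 and 1.62 CPM with the empty virus. Dnmt3l in the empty virus libraries was 0.372% and 0.372% of its ESC level, and the median of the 9 markers was 0.209% and 0.172% of theirs. Macrophage and leukocyte markers moved too, with 9 of 10 called lower and 0 higher with the Cdh1 virus, at a summed 112 and 111 CPM, against 274 and 259 CPM with the empty virus. The part of both lists in the Dnmt3l and Dnmt3b results of the empty virus was not tested.

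On day 2 over MEFs, Uhrf1 rose furthest of the members tested at more than 1 CPM. With the empty virus Uhrf1 stood at 81.4 and 77.0 CPM on day 2, against 14.8 and 16.9 CPM in MEFs (5.00-fold, log2 2.32 ± 0.09 SE, adjusted p = 3.08e-16), and with the Cdh1 virus at 66.9 and 69.1 CPM on day 2, against 17.1 and 19.3 CPM in MEFs (3.76-fold). Dnmt1 was 1.51-fold higher on day 2 with the empty virus and 1.40-fold with the Cdh1 virus. Dnmt3a fell, to 46.7 and 48.0 CPM on day 2 with the empty virus, against 87.9 and 85.6 CPM in MEFs (log2 -0.87 ± 0.06 SE, adjusted p = 1.59e-11), and by log2 -1.01 ± 0.06 SE with the Cdh1 virus. Tet1 fell to 6.96 and 6.26 CPM on day 2, against 12.9 and 12.5 CPM in MEFs (empty virus, log2 -0.94 ± 0.10 SE), and Tet2 to 14.4 and 15.1 CPM, against 23.1 and 21.1 CPM in MEFs (log2 -0.58 ± 0.09 SE). With the Cdh1 virus the log2 changes were -0.98 ± 0.10 SE for Tet1 and -0.57 ± 0.09 SE for Tet2.

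With the empty virus 9 of 9 were called (66% of all genes, 33.4% higher and 32.7% lower), 6 higher and 3 lower, and with the Cdh1 virus 6 of 9 (66% of all genes, 33.4% higher and 32.6% lower), 3 higher and 3 lower. Dnmt3b at 3.84 and 3.71 CPM on day 2, against 2.24 and 2.65 CPM in MEFs, and Tet3 at log2 0.18 ± 0.07 SE were called with the empty virus. With the Cdh1 virus their values, log2 0.11 ± 0.21 SE and 0.07 ± 0.07 SE, missed the threshold, and the difference between the viruses was not tested. The Tet3 value turned to log2 -0.035 and -0.0383 by limma with pseudocounts 1 and 0.1, and was not called by DESeq2 (adjusted p = 0.0789). Limma did not call Dnmt3b with the empty virus (0.149 and 0.130), nor Tdg with the empty virus (0.140 and 0.140) or the Cdh1 virus (0.106 and 0.106). The empty virus call of Dnmt3b was lost without MEF replicate 1 or day 2 replicate 1 (adjusted p 0.109 and 0.0605), and that of Tet3 without either MEF replicate or day 2 replicate 2 (0.0606 to 0.168). Dnmt3l went to 38 reads on day 2, against 4 reads in MEFs, with the empty virus (ratio 8.01, 95% counting interval 2.88 to 30.9). S phase genes were called higher in 19 of 20 with the empty virus, at a summed 1673 and 1683 CPM on day 2, against 657 and 640 CPM in MEFs. G2 and M phase genes summed to 1723 and 1733 CPM on day 2, against 396 and 407 CPM in MEFs. Macrophage and leukocyte markers were called lower in 9 of 10, at a summed 274 and 259 CPM on day 2, against 1395 and 1502 CPM in MEFs. The part of these lists in the members' changes was not tested.

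The direction of Tet2 and Dnmt3a on day 2 was thus opposite in the 2 experiments: both rose in the timecourse and fell with either virus. In 1 fit of the timecourse, lentivirus and ESC libraries, the day 2 change of the timecourse minus that of the empty virus cells was called for 6 of 9 members (54.9% of all genes, 25.8% higher and 29.1% lower). The difference in log2 fold change was 1.56 ± 0.11 SE for Tet2 (adjusted p = 3.31e-15), 1.41 ± 0.07 SE for Dnmt3a (adjusted p = 7.08e-19), 0.57 ± 0.14 SE for Tet1 and 0.52 ± 0.08 SE for Tet3. Uhrf1 had a smaller rise in the timecourse, by -1.25 ± 0.09 SE (adjusted p = 3.53e-14). Dnmt3l gave -4.00 ± 0.65 SE from few reads. Dnmt1 and Tdg were not called, with differences of -0.09 ± 0.07 SE and 0.01 ± 0.07 SE, and the Dnmt1 difference was 0.18 by limma on log2(TPM + 1) (adjusted p = 0.0206). Library totals shifted the median of all genes by 0.14 here. The MEFs of the timecourse were at a summed 2067 and 2095 CPM of S phase genes and those with the empty virus at 657 and 640 CPM. Macrophage and leukocyte markers summed to 262 and 258 CPM in the timecourse MEFs and 1395 and 1502 CPM in MEFs with the empty virus. The experiments also differ in virus, sequencing layout and spike, and these differences cannot be told apart.

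**Figure D4:**
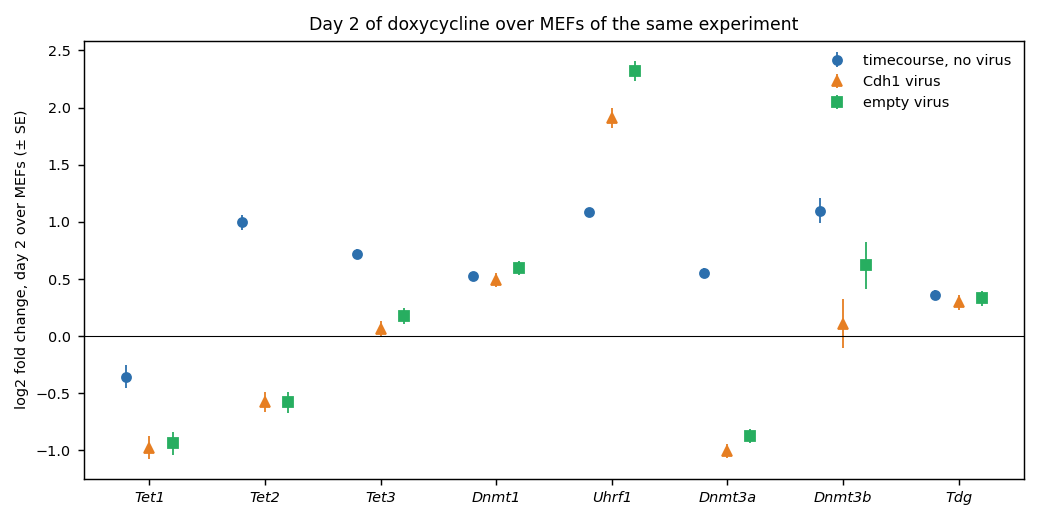
Points show the log2 fold change (y axis, bars are SE) on day 2 of doxycycline with DMSO over uninduced MEFs of the same experiment for 8 genes, in the timecourse (circles), with the Cdh1 virus (triangles) and with the empty virus (squares). Tet2 and Dnmt3a lie above 0 in the timecourse and below 0 with both viruses, and Uhrf1 is the highest point in both virus groups.

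In the lentivirus cells on day 2, Uhrf1 was lower with SGC0946 with either virus and Dnmt1 with the empty virus, by edgeR. With the empty virus, 2 of 9 members were called (6.73% of all genes, 3.22% higher and 3.52% lower): Uhrf1, at 56.6 and 65.5 CPM with SGC0946, against 81.4 and 77.0 CPM with DMSO (log2 fold change -0.37 ± 0.08 SE, adjusted p = 0.00568), and Dnmt1, at 96.4 and 94.3 CPM with SGC0946, against 113 and 115 CPM with DMSO (log2 -0.26 ± 0.06 SE, adjusted p = 0.0102). With the Cdh1 virus, 1 of 9 was called (5.05% of all genes, 2.82% higher and 2.23% lower), Uhrf1, at 60.4 and 52.3 CPM with SGC0946, against 66.9 and 69.1 CPM with DMSO (log2 -0.27 ± 0.08 SE, adjusted p = 0.0433). Dnmt1 with the Cdh1 virus was not called (log2 -0.11 ± 0.06 SE, adjusted p = 0.3005). None of these groups overlapped. The Cdh1 virus call of Uhrf1 was lost with upper quartile scaling (adjusted p = 0.0505), a replicate block (0.0555), only the compared groups in the fit (0.115) and limma (0.139 and 0.156). Limma also lost Uhrf1 (0.0609 and 0.0708) and Dnmt1 (0.0608 and 0.0681) with the empty virus. The Dnmt1 call was lost without any 1 of the 4 libraries (adjusted p 0.055 to 0.0784), the empty virus call of Uhrf1 without replicate 1 of either group (0.0956 and 0.146) and its Cdh1 virus call without either DMSO replicate or SGC0946 replicate 2 (0.124 to 0.333). Without SGC0946 replicate 1, Dnmt3b with the empty virus was called higher (log2 0.60, adjusted p = 0.0291). S phase genes were called lower in 6 of 20 with the empty virus and 2 of 20 with the Cdh1 virus, and higher in 0 of either.

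Differences of the SGC0946 effect between viruses and between experiments were tested next. Between the Cdh1 and the empty virus edgeR, DESeq2 and limma called 0 members, with 1, Dnmt3b, at an unadjusted p under 0.05 (0% of all genes called). Between the timecourse and the empty virus on day 2 these tools also called 0, with 1, Uhrf1, at an unadjusted p under 0.05 (3.38% of all genes called, 2.08% higher and 1.3% lower). The Uhrf1 difference there was 0.24 ± 0.08 SE (adjusted p = 0.101), and 0.35 (adjusted p = 0.0176) without SGC0946 replicate 2 of the empty virus.

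Across 6 SGC0946 comparisons (day 2 and full-window day 4 of the timecourse, both sorted populations, both viruses), the estimates of some members kept 1 sign. Tet2 and Dnmt1 were below 0 in 6 of 6, called lower in 2 and 3 of them, with log2 fold changes between -0.32 and -0.02 for Tet2 and between -0.28 and -0.03 for Dnmt1. Tet1 and Tdg were above 0 in 6 of 6, called higher in 2 and 3, between 0.04 and 0.59 for Tet1 and between 0.02 and 0.23 for Tdg. Uhrf1 was below 0 in 5 of 6 and called lower in 3. Tet3 was called in 0 of 6, with estimates between -0.05 and 0.04 and 3 on each side of 0. Each comparison has its own DMSO libraries. The early and mid windows share those of day 4 and were left out of these counts. With the early window Tet1 overlapped with DMSO, at 12.5 and 13.6 CPM, against 13.2 and 13.2 CPM. With the mid window Tet1 was at 15.1 and 14.2 CPM. How many of all genes kept 1 sign over these comparisons was not counted. Some estimates near 0 turned sign under other settings or with a library left out. They reached 0.030 for Tet2 in CDH1- cells, 0.005 for Dnmt1 in CDH1+ cells, -0.034 for Tet1 with the empty virus and -0.039 for Tdg with the Cdh1 virus.

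**Figure D5:**
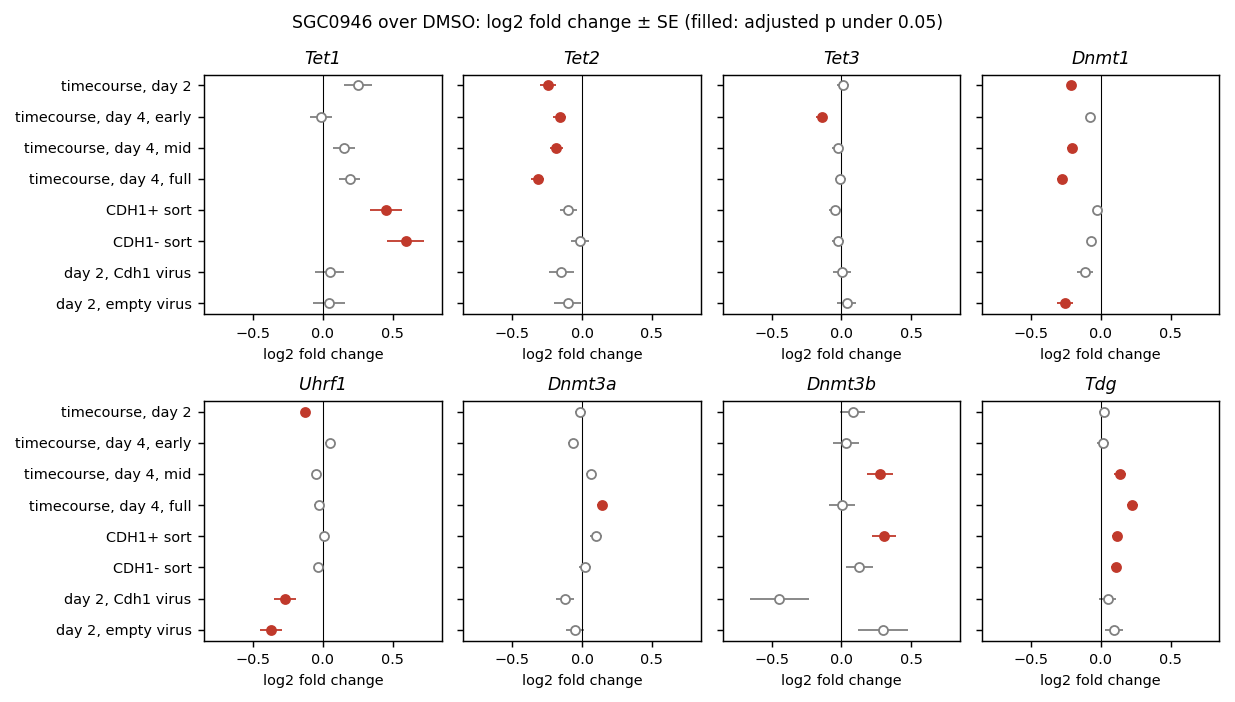
Points show the log2 fold change of SGC0946 over DMSO (x axis, bars are SE) for 8 genes in 8 comparisons, filled where the adjusted p was under 0.05. The 3 day 4 windows share their DMSO libraries. The Tet2 and Dnmt1 points lie left of 0, the Tdg points right of 0, and the Tet3 points close to 0 except for the early window at -0.14.

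The mean transcript length that RSEM assigned to Dnmt3a separated ESCs from the other cells. RSEM averages over the transcripts of a gene by abundance, and the tables hold 2 transcripts of Dnmt3a. The length was 7840 and 7892 bases in ESCs, against 9536 and 9393 bases in MEFs with the empty virus and 8955 and 9065 bases in day 2 cells with the empty virus and DMSO. All other libraries were between 9091 and 9735 bases, so no library overlapped with the ESCs. The short form of Dnmt3a, known from ESCs, starts at an internal promoter inside the gene and lacks the N-terminal part of the protein. RefSeq windows (GRCm38.p6, plus strand, 300 bases) of the upstream start at chr12:3806730-3807029 and of the internal start at chr12:3891494-3891793 are printed with each CpG in capitals, 46 and 18 of them, at 82.3% and 74.0% GC. They show the CpG content of the 2 starts, and the expression tables do not measure their methylation.
Dnmt3a upstream start: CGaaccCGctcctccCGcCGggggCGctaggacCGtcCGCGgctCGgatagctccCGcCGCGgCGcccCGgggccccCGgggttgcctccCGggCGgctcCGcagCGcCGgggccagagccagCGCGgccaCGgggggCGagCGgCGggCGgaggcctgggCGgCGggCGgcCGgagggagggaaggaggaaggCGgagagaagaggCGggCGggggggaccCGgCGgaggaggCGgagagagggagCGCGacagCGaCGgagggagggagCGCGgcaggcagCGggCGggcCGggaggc
Dnmt3a internal start: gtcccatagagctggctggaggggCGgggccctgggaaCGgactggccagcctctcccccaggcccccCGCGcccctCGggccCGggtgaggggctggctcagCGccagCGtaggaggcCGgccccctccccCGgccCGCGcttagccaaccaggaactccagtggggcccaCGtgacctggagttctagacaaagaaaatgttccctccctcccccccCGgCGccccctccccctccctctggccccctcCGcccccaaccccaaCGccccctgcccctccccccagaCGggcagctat

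The genes whose course over the groups was most like each member's were found by Pearson correlation over the 17 group means of log2 CPM outside ESCs, centred within each experiment, among 13676 genes. For Uhrf1 these were Dut (r = 0.997), Mcm10 (0.996) and Ncapd2 (0.993), of nucleotide metabolism, replication and chromosome condensation. For Tet2 they were Mdm4 (0.992), Chd6 (0.989) and Phf21a (0.987), and for Tdg Wdr75 (0.988), Gspt1 (0.981) and Ccar1 (0.980). Dnmt1 was most like Cad (0.981), the enzyme that starts pyrimidine synthesis, Fkbp4 (0.978) and Kctd15 (0.975), and Dnmt3a like Tmem178 (0.980), Ephb4 (0.978) and Scara3 (0.978). Tet3 was most like Sbno2 (0.978), Acot1 (0.978) and Abca2 (0.977), and Tet1 like Cgn (0.973), which encodes the tight junction protein cingulin, and Npl (0.966). Dnmt3b had lower values, with Zscan10, a zinc finger gene of ESCs, at 0.855, Marco, a macrophage receptor gene, at 0.8496 and Zfp534 at 0.814. Dnmt3l was not tested in the timecourse and was left out. Between members, Tet2 and Dnmt3a had r = 0.863, Dnmt1 and Tdg 0.857, Dnmt1 and Uhrf1 0.777 and Tet1 and Dnmt1 -0.919. The groups share libraries' depth, experiment and cell cycle level, so these values describe the groups and carry no test.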

How the data were processed

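Polyadenylated RNA of 36 mouse libraries was analysed from the tables of 20325 genes that the authors deposited. Per the submitters' processing notes, Trimmomatic, Bowtie and RSEM 1.2.4 were used with the builds mm9 and hg18, and their order is not given in the sources used here. The deposited expected counts were estimated by RSEM and not normalized, and the deposited TPM were scaled by RSEM for length, per the file headers. Per the labels, timecourse and sort libraries were paired-end with 20 ng of human 293T RNA. That spike was not used for scaling here, so changes are relative to the other genes. Groups came from the titles. Members and gene lists were chosen with earlier results of these data known.

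Expected counts were rounded and tested with edgeR 4.0.16 in R 4.3.3 (TMM, filterByExpr with minimum count 10 and minimum total 15, robust quasi-likelihood fits, group coefficients), with adjustment over all tested genes. The timecourse fit tested 14473 genes in 14 libraries, the sort 13968 in 8, the lentivirus and ESC fit 15044 in 14 and the joint fit 15452 in 28. The script was tested on simulated data. Libraries of a group differed by more than sampling noise. TPM was compared within experiments. All 9 members were named, with the 3 genes most like each tested in all 3 fits by correlation (1 is not reported here), and up to 3 called genes of a list by smallest p. Promoters came from a RefSeq table (GRCm38.p6), a build other than that of the files. Alternatives were DESeq2 1.42.0, limma 3.58.1 on log2 TPM with pseudocounts of 1 and 0.1, other scalings, no filter, a replicate block, only the compared groups, and leaving out each library. Intervals cover counting error only.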

Additional observations from a re-analysis of the deposited data

Results flagged for a closer look

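For 7 values the difference between 2 effects itself passed the test. The effect of SGC0946 on Tdg was larger after the full window on day 4 than on day 2 of the timecourse, by 0.20 on the log2 scale. In that contrast 9.18% of all tested genes were called, and the Tdg call was lost by limma and with some single libraries left out. In the contrast between experiments that follows, 54.9% of all tested genes were called. The change on day 2 over MEFs in the timecourse minus that in cells with the empty virus was 1.56 for Tet2, 1.41 for Dnmt3a, 0.57 for Tet1, 0.52 for Tet3, -1.25 for Uhrf1 and -4.00 for Dnmt3l, all as log2 differences in the joint edgeR fit. The 2 experiments differ in virus, layout, spike and the levels of S phase genes and of macrophage and leukocyte markers in their MEFs, which cannot be told apart. The Dnmt3l value rests on few reads, and traces of pluripotent cell markers stood in the same libraries.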

How the results depend on the processing

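Of 225 counts of called members under other settings, 197 stayed within 1.5 times and 28 moved. Under limma on log2 TPM, with either pseudocount, SGC0946 on day 2 of the timecourse called 1 member, the early window 0, the mid window 2, early against mid window 2, day 4 minus day 2 effect 0, and each virus 0. DESeq2 gave 0 for the early window and 3 for early against mid window, as did RLE size factors and no filter there (3 each). The day 4 minus day 2 effect gave 2 with upper quartile scaling, the replicate block or only the compared groups. SGC0946 in CDH1- cells gave 1 by limma (pseudocount 1) and DESeq2. The Cdh1 against the empty virus on day 2 gave 2 with only the compared groups. SGC0946 with the Cdh1 virus gave 0 (Uhrf1 lost) with upper quartile scaling, the replicate block or only the compared groups. The SGC0946 effect between experiments gave 1 with no filter. Reversed were Dnmt1 on day 4 against MEFs (0.0418, library totals), Tet3 on day 2 with the empty virus (-0.035 and -0.0383, limma with pseudocounts 1 and 0.1) and Dnmt1 between experiments (0.18 and 0.17, limma likewise). The cause was not tested.

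Leaving out 1 library, counts ranged from 0 to 1 for SGC0946 with each virus, Cdh1 against empty virus, the early window, day 4 minus day 2 and the SGC0946 effect between experiments, from 1 to 2 in CDH1- and 1 to 3 in CDH1+ cells, from 2 to 3 for the mid window and from 1 to 3 for early against mid window. The lone library is then assumed to vary like the other groups. Replicate numbers showed no pairing: 0 of 21 correlations of same-numbered deviations in the timecourse, 0 of 6 in the sort and 1 of 21 in the lentivirus and ESC fit were over 0.1. With the replicate block, 213 of 216 single-gene results, called or not, kept their status, 1 call was lost and 2 were gained. Depth limits Dnmt3l, with at most 20.9 expected counts per library outside ESCs.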
